A study of Mus musculus with 4 samples.

Results

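The collagen genes were followed in single cells of E10.5 mouse hearts. All genes whose symbol is Col, a number, a and a number were taken, which gave 44 of the 32285 genes counted. Of these, 40 had at least 20 UMIs (unique molecular identifiers, each standing for 1 captured RNA molecule) and were described. *Col6a5* with 19 UMIs, *Col10a1* with 7, *Col6a4* with 4 and *Col28a1* with 4 were not measured. The hearts were control *Tie2*fl/fl, which carries the floxed alleles and for which no Cre is named, and *Tie2-cko*, which is *Nfatc1*Cre;*Tie2*f/f. TIE2, encoded by *Tek*, is the endothelial receptor for angiopoietins, and the knock-in *Nfatc1*Cre acts in endocardial cells (EdCs) and in the cells that arise from them. There were 2 libraries of each genotype, numbered 5 and 7 for control and 6 and 8 for *Tie2-cko*, each made from the whole dissected cardiogenic region. With 2 libraries a group, p-values measure the spread between these libraries, and a permutation of the labels could not go below 0.333.

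Collagens are secreted or membrane-anchored proteins in which 3 chains wind into a triple helix. Fibrillar collagens form the cables of connective tissue, type IV collagens form the sheet of basement membranes under endothelium and around muscle, and FACIT collagens sit on the surface of fibrils. In the heart at this stage EdCs line the chambers, a jelly-like matrix lies between them and the cardiomyocytes (CMs), and EdCs of the cushions turn into mesenchymal cells (MCs) that build the valves. The epicardium covers the outside and later supplies the fibroblasts that make most of the fibrillar collagen.

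The libraries held 8877 to 18488 barcodes and 169361996 to 259775540 UMIs, and 33419 cells passed the filters. Collagens took 489864 UMIs, which is 0.0505% to 0.0618% of a library. Cells were clustered without the collagens, their processing enzymes and receptors and *Tek* among the variable genes, and no collagen served as a marker of a cell type. Names below stand for cells like that type, and 8041 cells in 8 clusters stayed unnamed. These unnamed cells include 3 clusters with few UMIs, and 1 of them, which holds the chamber genes *Emcn* and *Gpr182*, took 5.73% and 4.69% of the cells in the control libraries and 6.18% and 2.64% in the *Tie2-cko* libraries. That cluster held 579, 351, 396 and 243 cells in libraries 5 to 8, beside 383, 142, 602 and 480 cells named chamber EdCs. The condition on few UMIs was set after the clusters were seen. So was a condition that left clusters with MC markers but little *Postn* unnamed, which applied to clusters 11 and 14. Libraries differed in their cells: CMs, EdCs, MCs and epicardial cells made up 46.8% and 36.8% of libraries 5 and 6 against 73.7% and 75.2% of libraries 7 and 8. Pairs of libraries shared 29 to 62 barcodes, at most 0.521% of the smaller library. In chamber EdCs *Tek* had 0.882 and 1.00 UMIs per 10000 in controls against 0.133 and 0.141 in *Tie2-cko* (log2 fold change -2.51, adjusted p = 0.00393 by edgeR's quasi-likelihood test), so the deleted gene went against no label.

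Chamber EdCs had the highest summed level of collagens, and the cushion EdCs followed. The level of a gene is its share of a cell's UMIs, per 10000, averaged over the cells of a type in a library. Summed over the collagens it was 19.2, 20.8, 16.7 and 16.7 in the chamber EdCs of libraries 5, 6, 7 and 8, with a mean of 18.3 ± 2.03 (SD, n = 4). In cushion EdCs it was 16.2, 17.2, 13.8 and 14.02, with a mean of 15.3 ± 1.67. Within each library chamber EdCs were above cushion EdCs, although the ranges over libraries overlapped. Under a stricter cell filter this order was lost in library 5, with 15.78 in chamber and 15.85 in cushion EdCs. MCs (11.5 ± 1.21), epicardial cells (11.4 ± 0.640) and vascular-like cells (10.6 ± 0.931) came next and did not separate from each other. CMs were far lower, at 3.44 ± 0.348, and red blood cells, taken as a type that should lack collagens, were at 0.397 ± 0.0608. Of the red blood cell level 41.2% was *Col18a1*. Red blood cells held 117, 87, 45 and 19 *Col5a1* UMIs in libraries 5 to 8 beside 34, 14, 6 and 9 of *Col5a2*. All barcodes, before any filter, held 13879 of *Col5a1* and 18715 of *Col5a2*, so the mix in red blood cells was not that of all barcodes. How much of this level is free RNA was not tested. Cluster 18, an MC cluster, was at 14.6, 14.8, 13.2 and 12.7 in libraries 5 to 8, below the cushion EdCs in each library. Unnamed cluster 19 was at 13.2, 20.1, 11.3 and 12.5, above them in library 6 alone.

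**Figure D1:**
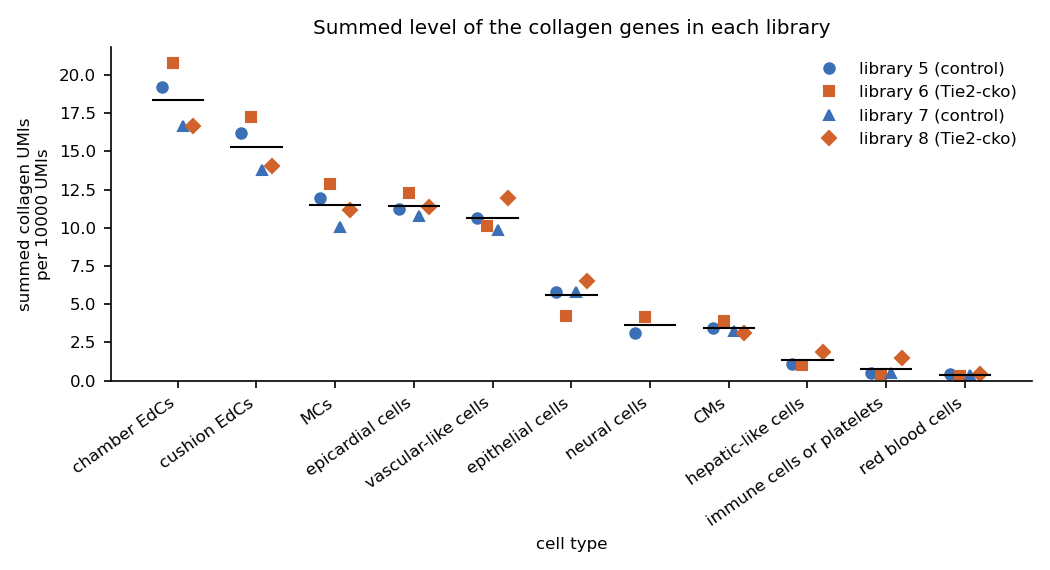
Summed collagen UMIs per 10000 UMIs (y axis) in each named cell type (x axis), 1 point per library with blue for control and orange for *Tie2-cko*, and a line at the mean. Chamber EdCs sit between 16.7 and 20.8, and red blood cells between 0.314 and 0.449.

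Few genes carried the sum. *Col4a1* and *Col18a1* gave 30.9% of all collagen UMIs, the first 5 genes (with *Col3a1*, *Col2a1* and *Col4a2*) 60.5% and the first 10 genes 83.8%. The mix of families also differed between the cell types. Basement membrane chains made up 61.6% of the summed level in vascular-like cells, 46.3% in chamber EdCs and 43.3% in CMs, against 11.7% in MCs. Fibrillar chains made up 48.8% in epicardial cells and 46.7% in MCs, against 22.3% in chamber EdCs and 9.13% in vascular-like cells. The multiplexins *Col18a1* and *Col15a1* took 32.5% in cushion EdCs and 21.3% in chamber EdCs. FACIT collagens took 20.1% in MCs, 5.23% in CMs and 0.556% in chamber EdCs. All levels by cell type are descriptions with no test, since the clusters were made from the same cells.

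**Figure D2:**
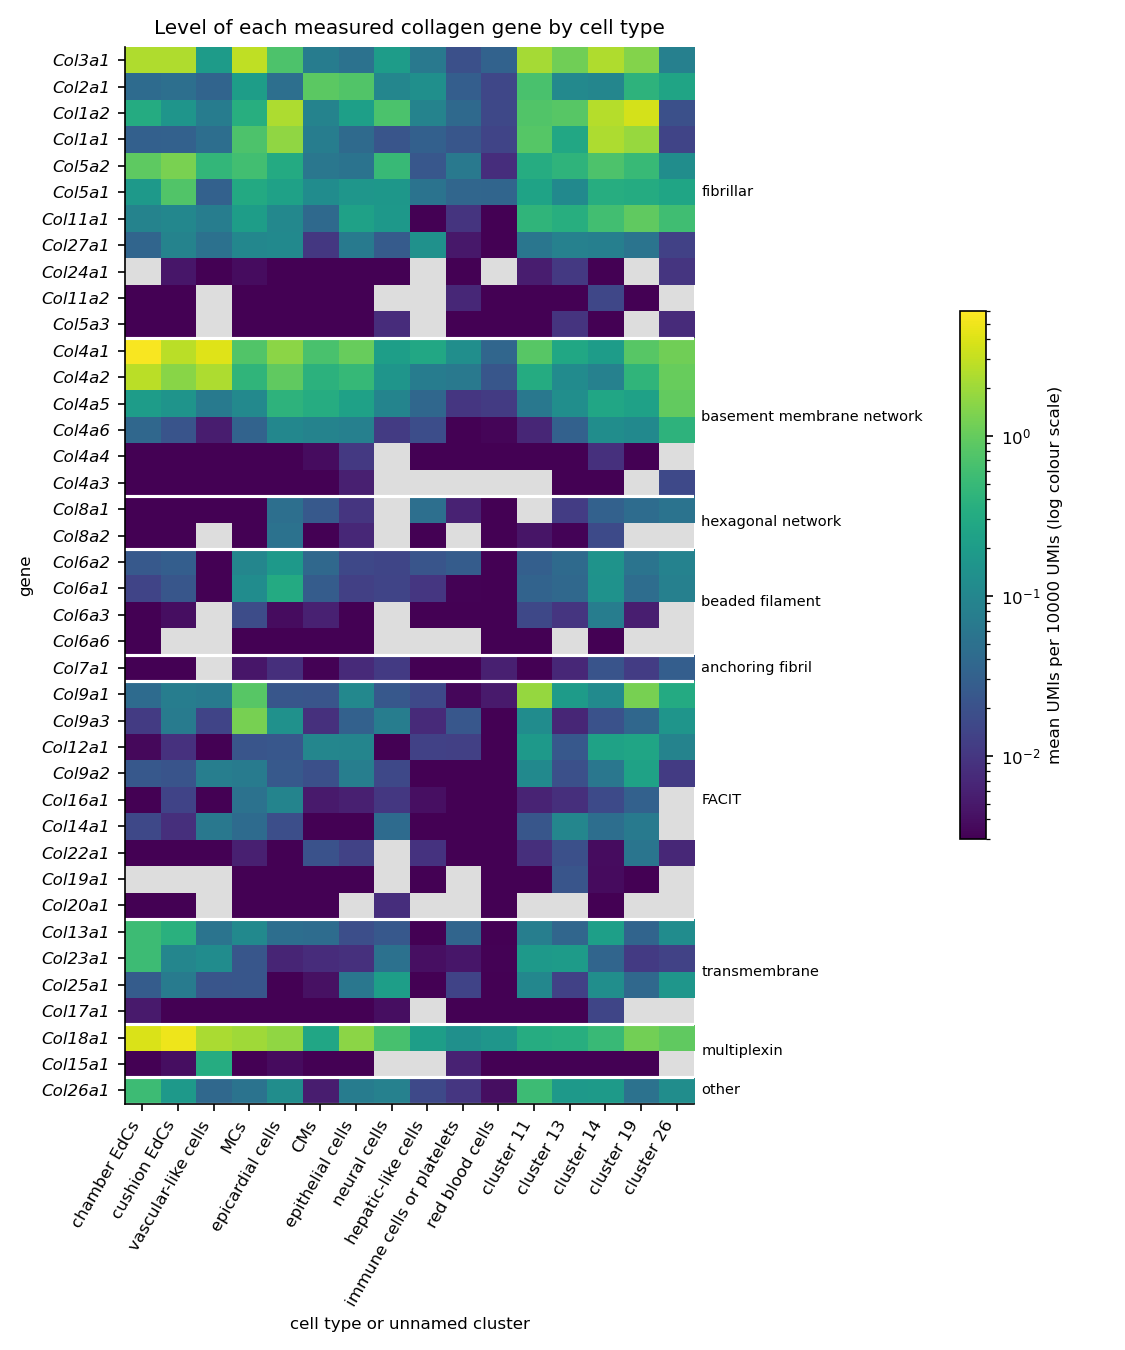
Mean level of each of the 40 measured collagens (y axis, grouped by family) in 11 named cell types and 5 unnamed clusters (x axis), as UMIs per 10000 on a log colour scale with grey for no UMI. The type IV genes *Col4a1* and *Col4a2* are brightest in chamber EdCs and vascular-like cells. *Col1a1* and *Col1a2* are brightest in epicardial cells and clusters 14 and 19, *Col9a1* in cluster 11 and *Col9a3* in MCs.

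By cell type of the highest level, 9 of the 40 genes peaked in epicardial cells, 6 in chamber EdCs, 5 in epithelial cells, 4 each in MCs, cushion EdCs and neural cells, 3 in CMs, 2 each in hepatic-like and vascular-like cells and 1 in immune cells or platelets. Many of the genes that peaked in epithelial, neural, hepatic-like or immune cells were sparse. Highest levels of a gene here and below are among the named types, and unnamed clusters were higher for some genes. Among the genes with at least 1000 UMIs, epicardial cells held 7, chamber EdCs 5, MCs, cushion EdCs and CMs 3 each, epithelial and hepatic-like cells 2 each, and neural and vascular-like cells 1 each.

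*Col4a1* and *Col4a2*, whose chains form the usual network of basement membranes, were highest in chamber EdCs. *Col4a1* was at 5.67, 7.06, 4.37 and 5.04 in libraries 5 to 8 there, above the vascular-like cells (4.15 ± 0.557) in all 4 libraries. Cushion EdCs were lower still, at 2.72 ± 0.460, and epicardial cells 1.59 ± 0.0336. *Col4a2* followed the same order, with 2.98, 3.24, 2.26 and 2.57 in the chamber EdCs of libraries 5 to 8, 2.32 ± 0.133 in vascular-like cells and 1.53 ± 0.328 in cushion EdCs. In red blood cells *Col4a1* was at 0.0371 and *Col4a2* at 0.0229. The ratio of *Col4a1* to *Col4a2* UMIs was 2.02 ± 0.0914 in chamber EdCs, above that of the other cardiac types, each taken as a whole, in each library. It was 1.81 ± 0.123 in cushion EdCs, 1.82 ± 0.0894 in MCs, 1.73 ± 0.0913 in epicardial cells and 1.84 ± 0.0856 in CMs. Single clusters within these types reached higher. MC cluster 18 was at 2.18 ± 0.109, above chamber EdCs in each library, and CM cluster 2 at 2.01 ± 0.103, above them in libraries 5 and 7. Over 24 clusters the mean levels of *Col4a1* and *Col4a2* had a Pearson's r of 0.986, as a description over clusters that share libraries.

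The pair lies head to head on chromosome 8 in mm10, *Col4a1* at chr8:11198423-11312826 on the minus strand and *Col4a2* at chr8:11312805-11449287 on the plus strand, with 21 bases between their starts, so that the genes overlap. Their start regions are shown because they are the shared stretch between the most abundant pair of chains. Each window below runs from 250 bases before to 50 after the RefSeq start in GRCm38.p6, 5′ to 3′ on the strand of its gene, and 78 bases belong to both windows. Capitals mark matches, on either strand, to the CCAAT box (CCAAT) and the GC box (GGGCGG).
Col4a1 (chr8:11312777-11313076, minus strand): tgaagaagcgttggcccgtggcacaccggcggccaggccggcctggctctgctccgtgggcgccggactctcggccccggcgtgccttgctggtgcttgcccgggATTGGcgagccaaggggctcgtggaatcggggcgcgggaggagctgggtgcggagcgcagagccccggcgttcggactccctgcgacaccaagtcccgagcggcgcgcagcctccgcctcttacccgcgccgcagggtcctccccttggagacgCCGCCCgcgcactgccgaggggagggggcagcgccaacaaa
Col4a2 (chr8:11312555-11312854, plus strand): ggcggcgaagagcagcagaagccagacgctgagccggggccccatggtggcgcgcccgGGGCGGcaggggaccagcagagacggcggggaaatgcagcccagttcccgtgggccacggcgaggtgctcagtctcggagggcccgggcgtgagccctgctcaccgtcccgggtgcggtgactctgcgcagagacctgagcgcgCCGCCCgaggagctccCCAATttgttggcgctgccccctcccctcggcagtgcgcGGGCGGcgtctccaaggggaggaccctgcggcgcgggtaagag
Both windows hold a CCAAT box and at least 1 GC box. The GC box of the *Col4a1* window lies in the 78 shared bases and is also a GC box of the *Col4a2* window. It therefore counts for both genes below. CCAAT was found in 12 of the 35 collagens with a promoter sequence (34.3%) and in 37.4% of all 32851 promoters, and the GC box in 22 (62.9%) and in 35.7%. The TATA box (TATAAA) was found in 5 (14.3%) against 13.6% of all promoters, and the forkhead motif GTAAACA in 1, *Col6a1* (2.86%), against 3.65%. A match is a run of letters and not a bound site.

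The other type IV genes also stand in head-to-head pairs, *Col4a5* with *Col4a6* on the X chromosome (1309 bases between the starts) and *Col4a3* with *Col4a4* on chromosome 1 (72 bases). Among named types *Col4a5* was highest in epicardial cells, at 0.360, 0.503, 0.40 and 0.389 in libraries 5 to 8. All CMs together followed at 0.328 ± 0.0259, lower in all 4 libraries, although CM cluster 3 had a higher mean than the epicardial cells. Unnamed cluster 26 (115 cells) was at 0.972. *Col4a6* was at 0.100 ± 0.0105 in epicardial cells and 0.0893 ± 0.0101 in CMs, which did not separate in all libraries. In cluster 26 *Col4a6* was at 0.405. Levels of *Col4a5* and *Col4a6* went together over the 24 clusters (Pearson's r of 0.954), while *Col4a1* and *Col4a5* did not (-0.0035). The UMIs of *Col4a1* and *Col4a2* together outnumbered those of *Col4a5* by 45.3 ± 3.78 times in chamber EdCs, 30.3 ± 5.51 times in cushion EdCs, 11.1 ± 1.41 times in MCs, 6.38 ± 0.423 times in epicardial cells and 3.64 ± 0.476 times in CMs. In the CM cluster with *Shox2* among its leading genes (cluster 3) the ratio was 1.81 ± 0.163. *Col4a3* (71 UMIs) and *Col4a4* (334 UMIs) were sparse, highest among named types in epithelial cells at 0.00593 and 0.0106, and had a Pearson's r of 0.228.

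*Col18a1*, the multiplexin from which endostatin is cut, was the leading collagen of cushion EdCs. It was at 5.53, 5.56, 4.18 and 4.63 there in libraries 5 to 8, above chamber EdCs (3.91 ± 0.476) in each library, and it was well expressed in vascular-like cells (2.29 ± 0.220), MCs (2.03 ± 0.232) and epicardial cells (1.68 ± 0.153). Its level in red blood cells was 0.162 ± 0.0161, the highest of any collagen there. *Col15a1*, its partner in the family, was nearly limited to the vascular-like cells. It was at 0.444, 0.422, 0.284 and 0.194 in libraries 5 to 8, 54.8 times the next named type, and at 0.000348 in chamber EdCs and 0.00394 in cushion EdCs. So *Col4a1*, *Col4a2* and *Col18a1* were well expressed in both EdCs and vascular-like cells, whereas *Col15a1* was scarce in EdCs. *Col15a1* was not the only difference. *Col3a1* was at 2.43 in chamber and 2.40 in cushion EdCs against 0.193 in vascular-like cells, and *Col13a1* at 0.555 and 0.378 against 0.0559.

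Among fibrillar collagens *Col3a1* was spread over MCs and both kinds of EdC. It was at 2.93, 3.30, 2.39 and 2.94 in the MCs of libraries 5 to 8, at 2.43 ± 0.158 in chamber EdCs and at 2.40 ± 0.191 in cushion EdCs. MCs were above chamber EdCs in 3 of 4 libraries, so these types did not separate. Epicardial cells were at 0.720 ± 0.0437, vascular-like cells at 0.193 ± 0.0777 and CMs at 0.0722 ± 0.0386. *Col5a2*, whose chain joins type V heterotrimers that start fibrils, was highest in cushion EdCs at 1.37, 1.31, 1.17 and 1.39 in libraries 5 to 8, above chamber EdCs (0.913 ± 0.0852) in every library. *Col5a1*, the other chain of type V, was also highest in cushion EdCs, at 0.736, 0.801, 0.773 and 0.745, with MCs at 0.301 ± 0.0406. In chamber EdCs it was at 0.178 ± 0.0452. The ratio of *Col5a1* to *Col5a2* UMIs therefore ran from 0.190 ± 0.0485 in chamber EdCs over 0.643 ± 0.0744 in cushion EdCs and 0.777 ± 0.157 in epicardial cells to 2.28 ± 0.307 in CMs.

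*Col1a1* and *Col1a2* encode the chains of type I collagen, and their balance differed between cell types. *Col1a2* was highest among named types in epicardial cells, at 2.33, 2.51, 2.16 and 2.33 in libraries 5 to 8, and *Col1a1* at 1.42, 1.88, 1.69 and 1.84. MCs had 0.353 ± 0.0534 of *Col1a2* and 0.711 ± 0.0907 of *Col1a1*. The ratio of *Col1a1* to *Col1a2* UMIs was 2.08 ± 0.200 in MCs and 0.681 ± 0.0829 in epicardial cells, and the ranges over libraries did not overlap (1.91 to 2.37 against 0.569 to 0.754). It was 0.749 ± 0.123 in CMs, and reached 3.51 ± 0.550 in MC cluster 18 and 0.407 ± 0.0923 in unnamed cluster 19. In chamber EdCs *Col1a2* was counted 193, 225, 251 and 213 times in libraries 5 to 8 while *Col1a1* was counted 12, 82, 26 and 18 times. Cushion EdCs had 78, 60, 88 and 107 *Col1a2* UMIs and 13, 7, 17 and 36 *Col1a1* UMIs. Neural cells of libraries 5 and 6 had 75 and 222 *Col1a2* UMIs beside 4 and 15 of *Col1a1*. *Col1a2* in EdCs thus stood well over red blood cells (0.0156), at 0.323 ± 0.0519 in chamber EdCs, whereas *Col1a1* (0.0305 ± 0.0208) was near theirs (0.0145 ± 0.00592).

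**Figure D3:**
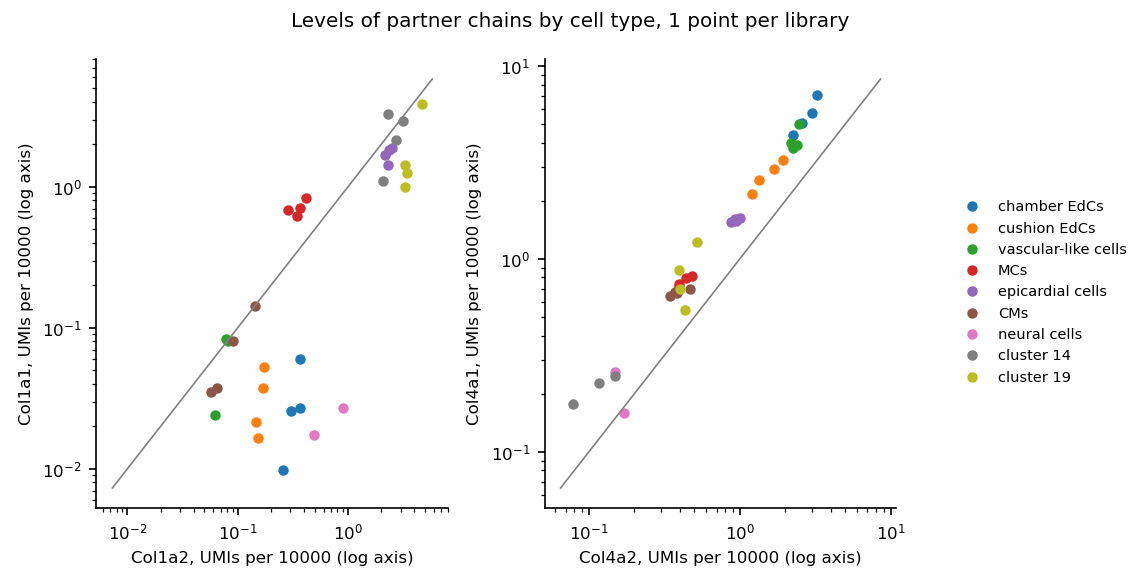
*Col1a1* against *Col1a2* (left) and *Col4a1* against *Col4a2* (right), in UMIs per 10000 on log axes, 1 point per library and cell type (libraries at 0 not drawn), with a grey line at equal levels. EdCs and neural cells fall far below the line for *Col1a1* and *Col1a2*, MCs lie above it, and chamber EdCs, cushion EdCs, MCs, epicardial cells and CMs keep to 1 diagonal for *Col4a1* and *Col4a2*.

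The start region of *Col1a2* is shown because EdCs hold this chain with little of its partner. The capitals mark CCAAT and GC boxes as above, and the window follows the RefSeq start, which lies inside the gene as the annotation of mm10 gives it (chr6:4504814-4541544, plus strand).
Col1a2 (chr6:4505368-4505667, plus strand): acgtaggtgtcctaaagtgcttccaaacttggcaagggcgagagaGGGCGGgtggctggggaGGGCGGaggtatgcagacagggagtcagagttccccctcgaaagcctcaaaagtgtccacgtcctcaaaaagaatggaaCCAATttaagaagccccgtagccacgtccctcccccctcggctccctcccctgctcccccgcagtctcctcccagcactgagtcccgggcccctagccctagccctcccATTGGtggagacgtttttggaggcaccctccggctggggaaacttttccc
It holds a CCAAT box on each strand and a pair of GC boxes.

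*Col2a1*, the fibrillar collagen of cartilage, had the highest mean level of any collagen over all CMs. It was at 0.884, 0.950, 0.827 and 0.839 in the CMs of libraries 5 to 8 and at 0.762 ± 0.261 in epithelial cells, and neither type was higher in all libraries. Its level differed between CM clusters: it reached 2.38 ± 0.260 in cluster 9 (1522 cells) and led in cluster 4 (0.613 ± 0.0784, 1764 cells). In the larger clusters 0 (4551 cells) and 2 (2471 cells) *Col4a1* was higher, at 0.706 and 0.887 against 0.60 and 0.834 for *Col2a1*, and in cluster 3 (1861 cells) *Col4a5* (0.701) and *Col4a1* (0.700) were above it (0.635). EdCs (0.0427 ± 0.0158 in chamber EdCs) were close to red blood cells (0.0153 ± 0.00654). *Col11a1*, which associates with type II fibrils, was at 0.229 ± 0.0690 in epithelial cells and 0.205 ± 0.0147 in MCs, and at 0.935 in unnamed cluster 19. *Col27a1* was highest in hepatic-like cells (0.139) and in epicardial cells (0.111 ± 0.0223). *Col5a3* (highest in neural cells), *Col11a2* (immune cells or platelets) and *Col24a1* (cushion EdCs) had 73 to 121 UMIs in all, too few to order the types.

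The FACIT collagens *Col9a1* and *Col9a3*, which coat type II fibrils in cartilage, were highest in MCs among the named types. *Col9a1* was at 0.956, 0.985, 0.699 and 0.729 in the MCs of libraries 5 to 8, 8.004 times the epithelial cells, and at 1.83 in unnamed cluster 11. *Col9a3* was at 1.28, 1.44, 1.12 and 1.27, 8.96 times the epicardial cells. Cushion EdCs, from which MCs arise, had 0.0743 ± 0.0236 of *Col9a1* and 0.0709 ± 0.0170 of *Col9a3*. Their partner *Col9a2* did not follow, with 0.0713 ± 0.0174 in MCs and 0.0782 ± 0.0403 in epithelial cells, where it was highest among named types. It was at 0.241 in unnamed cluster 19. Other FACIT genes were low. Among named types *Col12a1* (0.0981 ± 0.0246) and *Col22a1* (0.0203 ± 0.00129) were highest in CMs and *Col16a1* in epicardial cells (0.0915 ± 0.0113). *Col14a1* was highest in vascular-like cells (0.0622 ± 0.0401), *Col19a1* in epithelial cells (0.00228) and *Col20a1* in neural cells (0.00813). *Col12a1* in CMs was above epithelial cells in 2 of 4 libraries. Unnamed cluster 19 had 0.259 of *Col12a1* and 0.0580 of *Col22a1*, and cluster 13 had 0.0980 of *Col14a1* and 0.0224 of *Col19a1*.

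Of the 4 measured beaded filament genes 3 were highest in epicardial cells. *Col6a1* was at 0.317 ± 0.0895 and *Col6a2* at 0.178 ± 0.0463 in epicardial cells, each above MCs (0.122 ± 0.0261 and 0.0992 ± 0.0298) in 4 of 4 libraries. *Col6a6* (37 UMIs) was also highest there. Among named types *Col6a3* was highest in MCs at 0.0173 ± 0.00168, and it was at 0.0742 in unnamed cluster 14. Of the type VI chains that join in 1 molecule, *Col6a3* was thus the scarce one, with 674 UMIs against 3959 for *Col6a1* and 4022 for *Col6a2*. The hexagonal network genes *Col8a2* (0.0520 ± 0.0161 in epicardial cells) and *Col8a1* (0.0482 ± 0.0155 in epicardial cells, 0.0487 ± 0.0842 in hepatic-like cells) were low, and *Col7a1*, the collagen of anchoring fibrils, was sparse with its highest level in neural cells (0.0108).

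The transmembrane collagens *Col13a1* and *Col23a1* had their highest level in chamber EdCs. *Col13a1*, a collagen of cell adhesion sites, was at 0.555 ± 0.159 in chamber EdCs and 0.378 ± 0.0947 in cushion EdCs, chamber EdCs being higher in 4 of 4 libraries, and MCs were at 0.110 ± 0.0223. *Col23a1* was more limited, at 0.557 ± 0.133 in chamber EdCs, 4.63 times the vascular-like cells (0.120 ± 0.0437), with cushion EdCs at 0.0977 ± 0.0287. *Col17a1* (83 UMIs) had too few UMIs to order the types, and *Col25a1* was highest in neural cells (0.220 and 0.210 in libraries 5 and 6), with cushion EdCs at 0.0700 ± 0.0145. *Col26a1*, which belongs to no large family, was at 0.544 ± 0.147 in chamber EdCs and 0.178 ± 0.0484 in cushion EdCs, and unnamed cluster 11, led by *Prrx1*, was at 0.545. These genes stood in chamber EdCs well over red blood cells, where *Col13a1*, *Col23a1* and *Col26a1* were at 0.0027, 0.00316 and 0.00395.

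In chamber EdCs, where *Tek* was lost, no collagen passed an adjusted p of 0.05 between genotypes. edgeR's quasi-likelihood test on UMIs summed per library, with Benjamini-Hochberg adjustment over all genes, tested 22 of the 44 collagens and called 0, against 0.00863% of all genes (1 gene, *Tek*). DESeq2 also called 0 collagens, against 21 of the 11593 genes tested. An unadjusted p under 0.05 was reached by 5 of the 22 collagens and by 6.94% of all genes. The fold changes below are log2 values of *Tie2-cko* over control from that fit, and the levels beside them are the means over cells. Fewer UMIs of a gene per cell and fewer cells with it are not told apart by either. The SE of a log2 fold change from edgeR is its absolute value divided by the square root of the test's F statistic.

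*Col13a1* had the smallest p among the collagens. Controls had 0.595 (library 5) and 0.752 (library 7) and *Tie2-cko* had 0.499 (library 6) and 0.375 (library 8), so both *Tie2-cko* libraries lay under both controls (log2 fold change -0.76, SE 0.18, adjusted p = 0.390, edgeR). *Col26a1* was at 0.643 and 0.618 in controls and 0.589 and 0.327 in *Tie2-cko* (log2 fold change -0.65, SE 0.22, adjusted p = 0.648), where library 8 lies apart from the other 3. *Col23a1* was at 0.713 and 0.579 against 0.546 and 0.388 (log2 fold change -0.47, adjusted p = 0.659). All of these have their highest named level in chamber EdCs. So do *Col4a1* and *Col4a2*, whose log2 fold changes, given below, were positive.

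To set depth aside, cells were thinned to 3000 UMIs, which left out 3 to 13 shallower cells a library. The share of chamber EdCs with a *Col13a1* UMI was then 14.9% and 20.9% in controls and 9.35% and 12.6% in *Tie2-cko*, and before thinning 49.3% and 55.3% against 62.7% and 34.8%, at median depths of 14868 and 12519 against 27638 and 11099 UMIs. For *Col26a1* the thinned shares were 18.1% and 20.03% against 11.5% and 9.85%. In thinned red blood cells *Col13a1* was seen in 0.175% and 0.313% of the control cells, and in 0 of the *Tie2-cko* cells, which allows up to 0.613% and 1.69%. Their unthinned median depths were 22799 to 60281 UMIs. These limits and shares cover counting error only. The thinned shares of *Col4a1* were 71.7% and 64.8% in controls and 74.1% and 60.2% in *Tie2-cko*, which overlap, as did those of *Col4a2* (50.7% and 45.1% against 51.1% and 47.1%).

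Genes with higher values in *Tie2-cko* were *Col5a1*, at 0.132 and 0.146 in controls and 0.214 and 0.219 in *Tie2-cko* (log2 fold change 0.57, SE 0.17, adjusted p = 0.542, edgeR), and *Col1a1*. *Col1a1* was at 0.00985 and 0.0255 in controls and 0.0596 and 0.0270 in *Tie2-cko* (log2 fold change 1.77, adjusted p = 0.697). The 82 *Col1a1* UMIs of library 6 came from 14 of its 142 chamber EdCs, and 25 were left without the 3 cells that held most. For *Col1a2* the levels were 0.258 and 0.303 against 0.367 and 0.364 (log2 fold change 0.31, adjusted p = 0.755), and for *Col4a5* 0.186 and 0.166 against 0.225 and 0.220 (0.33, adjusted p = 0.763).

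The most abundant chains had smaller fold changes. *Col4a1* had a log2 fold change of 0.30 (SE 0.16, adjusted p = 0.769, edgeR), with levels of 5.67 and 4.37 in controls and 7.06 and 5.04 in *Tie2-cko*, which overlap. *Col4a2* had a log2 fold change of 0.21 (SE 0.17) at 2.98 and 2.26 against 3.24 and 2.57, and *Col18a1* one of 0.01. For *Col3a1* it was -0.22 (SE 0.14, adjusted p = 0.825), at 2.39 and 2.65 against 2.41 and 2.27. Summed over the collagens the level was 17.9 ± 1.78 in control and 18.7 ± 2.93 in *Tie2-cko* chamber EdCs, and the difference of 0.801 turned to -1.27 without library 6 and to -0.458 without library 7. On the scale of library sums, on which the test works, both *Tie2-cko* libraries were above both controls for 5 of the 22 genes (19.6% of all genes) and below for 4 (17.9%). *Col4a1* was among the former, with 591 and 514 CPM (sums scaled to the normalised library size) in controls and 759.9 and 602 in *Tie2-cko*, and *Col3a1* among the latter, with 238 and 276 against 213 and 230.1, although their means over cells overlap.

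**Figure D4:**
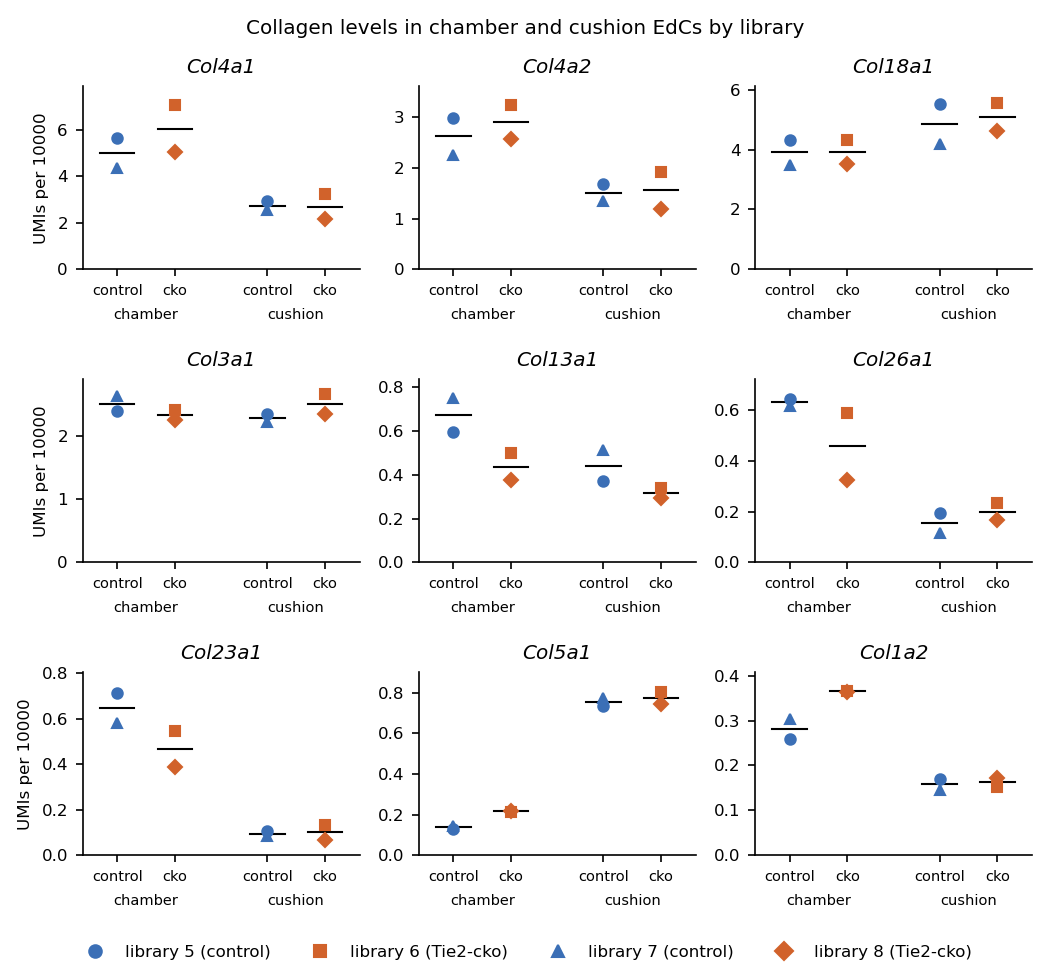
Level of 9 collagens (y axes, UMIs per 10000) in chamber and cushion EdCs of control and *Tie2-cko* hearts, 1 point per library with a line at the mean of 2. *Col13a1* of both *Tie2-cko* libraries lies under that of both controls in chamber and in cushion EdCs, and in chamber EdCs *Col26a1* and *Col23a1* are also lower and *Col5a1* and *Col1a2* higher in both, with no collagen past an adjusted p of 0.05.

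The calls depended on the fit. A term for libraries 5 and 6 against 7 and 8, which differ in their share of cardiac cells, gave 6 collagens past an adjusted p of 0.05 in chamber EdCs, against 7.55% of all genes: *Col13a1*, *Col26a1* and *Col23a1* lower and *Col5a1*, *Col4a1* and *Col1a1* higher in *Tie2-cko*. Within libraries 5 and 6 and within libraries 7 and 8 each of these genes differed the same way by level, but by library sums *Col1a1* was at 2.80 CPM in library 7 and 2.57 in library 8. Without a filter on low counts *Col13a1*, *Col26a1* and *Col1a1* passed, against 0.889% of all genes. Leaving out library 6 gave *Col13a1* and *Col26a1* (0.768% of all genes) and leaving out library 5 *Col13a1* and *Col1a1* (1.45%). Leaving out library 7 (0.825%) or library 8 (0.85%) gave *Col1a1* alone.

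Markers of other cells also had different levels in the genotypes. The summed level of the 6 red blood cell markers in chamber EdCs, all of them with UMIs, was 86.8 and 36.6 in controls and 14.3 and 13.4 in *Tie2-cko*, led by *Hbb-y*. That of the 7 MC markers was 1.09 and 1.06 in controls against 1.43 and 1.64 in *Tie2-cko*, led by *Twist1*. Their part in the results for *Col13a1*, *Col5a1*, *Col1a1* and the other collagens was not tested. *Col13a1* was at 0.110 in MCs and 0.0027 in red blood cells, against 0.555 in chamber EdCs.

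In cushion EdCs edgeR called 0 of 22 tested collagens (0.0444% of all genes), and DESeq2 called 0 (8 of the 11259 genes tested). Among the collagens 1 had an unadjusted p under 0.05 (2.03% of all genes). That gene was *Col13a1*, at 0.370 and 0.511 in controls and 0.337 and 0.292 in *Tie2-cko* (log2 fold change -0.62, SE 0.16, adjusted p = 1.0). With the term for libraries 5 and 6 it passed (adjusted p = 0.000549), against 0.764% of all genes. Genes with the next smallest p were *Col25a1* (0.51), *Col9a1* (0.65), *Col6a1* (-0.57) and *Col11a1* (0.30), all log2 fold changes at an adjusted p of 1.0. *Col4a1* (-0.01), *Col4a2* (0.01), *Col5a1* (-0.07), *Col3a1* (0.08) and *Col26a1* (0.26) were close to 0 or within an SE of it. By library sums both *Tie2-cko* libraries were above both controls for 4 of the 22 collagens (14.5% of all genes) and below for 3 (13.6%). Red blood cell markers were at 70.6 and 37.0 in controls and 13.4 and 12.1 in *Tie2-cko* here too. MC markers were at 3.71 and 3.92 in controls and 4.47 and 4.29 in *Tie2-cko*, and the part of either was not tested. Chamber and cushion EdCs summed into 1 sample a library gave 0 of 23 collagens (0.00798% of all genes), with DESeq2 at 0 as well (10 of the 12533 genes tested). Of the 23 collagens 4 had an unadjusted p under 0.05 (4.76% of all genes): *Col13a1*, *Col1a1*, *Col23a1* and *Col26a1*. The same 4 passed with the term for libraries 5 and 6 (6.45% of all genes), and *Col13a1* and *Col1a1* without a filter on low counts (0.517% of all genes).

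**Figure D5:**
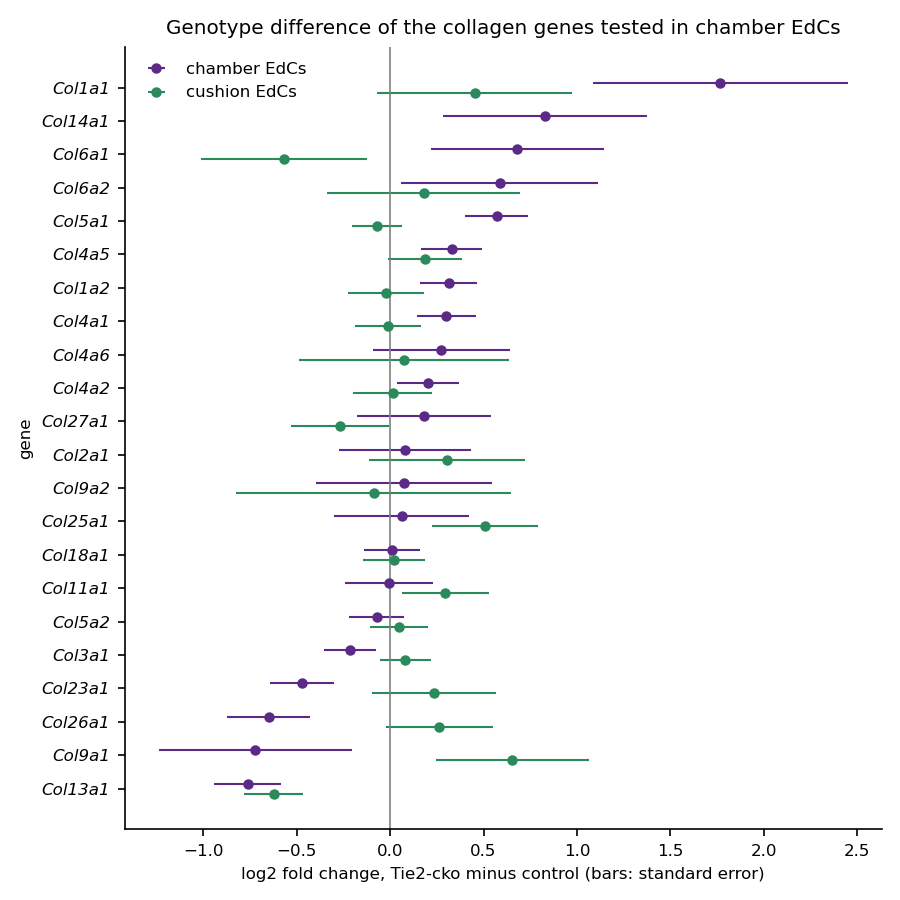
Log2 fold change of *Tie2-cko* over control (x axis) with its standard error for each collagen tested (y axis) in chamber EdCs (purple) and cushion EdCs (green). *Col13a1* lies to the left in both (-0.76 and -0.62), while *Col26a1* lies to the left in chamber EdCs (-0.65) and to the right in cushion EdCs (0.26).

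Whether the genotype difference itself differed between chamber and cushion EdCs was tested with each library as a block. None of 23 collagens passed an adjusted p of 0.05 (0.503% of all genes), and 7 had an unadjusted p under 0.05 (9.39% of all genes). DESeq2 was not run for this term. *Col26a1* came nearest, with a difference of -0.98 between the log2 fold changes (SE 0.21, adjusted p = 0.0511, edgeR), beside *Col4a1* with 0.31 (SE 0.07, adjusted p = 0.0511). *Col5a1* followed with 0.63 (adjusted p = 0.0903), then *Col3a1* with -0.31 (0.264) and *Col23a1* with -0.72 (0.279), *Col9a1* and *Col9a3*. *Col13a1* had a difference of -0.17 (adjusted p = 0.809). Without library 6 *Col26a1*, *Col4a1* and *Col4a2* passed (1.23% of all genes), and without library 5 *Col26a1*, *Col3a1* and *Col9a1* (0.996%). Without library 8 *Col1a1* and *Col26a1* passed (1.23%), and without library 7 none (0.0653%). Without a filter on low counts *Col26a1*, *Col4a1*, *Col5a1*, *Col3a1* and *Col9a1* passed, against 0.987% of all genes.

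In MCs, CMs and epicardial cells, the other types tested, no collagen was called by edgeR or by DESeq2. Over all genes tested DESeq2 called 9 of 12682 in MCs, 2 of 15550 in CMs and 7 of 11964 in epicardial cells. In MCs 26 collagens were tested (0.0% of all genes called) and 1 had an unadjusted p under 0.05 (1.06% of all genes), *Col14a1*, at 0.0369 and 0.0312 in controls and 0.0496 and 0.0541 in *Tie2-cko* (log2 fold change 0.56, SE 0.22, adjusted p = 1.0, edgeR). *Col1a2* was at 0.346 and 0.287 against 0.416 and 0.365 (0.29), *Col2a1* at 0.200 and 0.176 against 0.248 and 0.209 (0.27), and *Col25a1* at 0.0408 and 0.0193 against 0.0219 and 0.00915 (-1.12). *Col1a1* had 0.21 and *Col3a1* 0.20. By library sums both *Tie2-cko* libraries were above both controls for 7 of the 26 collagens (12.5% of all genes) and below for 3 (11.7%). In CMs 30 collagens were tested (0.0% of all genes called) and 0 had an unadjusted p under 0.05 (0.392% of all genes). The smallest p-values in CMs belonged to *Col4a4* (-0.57), *Col16a1* (0.34), *Col9a2* (0.21), *Col22a1* (0.16) and *Col1a2* (0.30). *Col1a2* in CMs was at 0.0901 and 0.0655 in controls and 0.143 and 0.0569 in *Tie2-cko*, and its direction turned without library 6 (-0.11) or library 7 (-0.03). In epicardial cells 25 were tested (0.0334% of all genes called) and 0 had an unadjusted p under 0.05 (1.07% of all genes), the smallest being those of *Col6a2* (0.33), *Col4a5* (0.20), *Col8a1* (0.57), *Col13a1* (0.37) and *Col2a1* (-0.40). In epicardial cells, which keep *Tek* at 0.248 in control and 0.212 in *Tie2-cko*, *Col13a1* was at 0.0402 and 0.0337 against 0.0673 and 0.0480. Library 6 had the highest summed collagen level of the 4 libraries in all 5 cardiac types.

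The genes that make, trim and read collagen were counted from 3 lists. Of 21 synthesis and folding genes, 21 were tested in chamber EdCs, 0 passed an adjusted p of 0.05 and 2 had an unadjusted p under 0.05. Of 14 processing and crosslinking genes 7 were tested and 1 had such a p, and of 10 receptors 4 were tested and 2 did, against 6.94% of all genes. *Itga1*, a collagen-binding integrin chain, was at 0.742 and 0.644 in controls and 1.14 and 1.01 in *Tie2-cko* (log2 fold change 0.61, SE 0.13, adjusted p = 0.305, edgeR). *Loxl2*, a crosslinking enzyme, had 0.61, *Plod2*, which hydroxylates lysine, 0.57, *P3h3* 0.34 and *Itgb1*, the partner of *Itga1*, 0.30, all with an unadjusted p under 0.05 and higher in *Tie2-cko*. The chaperone *Serpinh1* (-0.02) and the prolyl hydroxylase chains *P4hb* (-0.13) and *P4ha1* (0.26) had an adjusted p of 0.847 to 0.990. In the test between chamber and cushion EdCs *Sparc*, a collagen-binding matrix protein, with a difference of 0.28, and *Itga1* with 0.57 passed (adjusted p = 0.0427 for each, edgeR). By cell type *Serpinh1* (9.17), *Sparc* (19.9), *P4hb* (2.61), *P4ha1* (0.898) and *Ddr2* (0.0473) were highest in epicardial cells, *Plod2* in MCs (0.725), *Itga1* in cushion EdCs (1.52) and *Lox* in vascular-like cells (0.0491), as mean UMIs per 10000.

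The start region of *Col13a1* is shown because this gene had the smallest p in both kinds of EdC. The gene lies at chr10:61838236-61979108 on the minus strand in mm10. Capitals mark the 1 motif found, TATAAA.
Col13a1 (chr10:61979059-61979358, minus strand): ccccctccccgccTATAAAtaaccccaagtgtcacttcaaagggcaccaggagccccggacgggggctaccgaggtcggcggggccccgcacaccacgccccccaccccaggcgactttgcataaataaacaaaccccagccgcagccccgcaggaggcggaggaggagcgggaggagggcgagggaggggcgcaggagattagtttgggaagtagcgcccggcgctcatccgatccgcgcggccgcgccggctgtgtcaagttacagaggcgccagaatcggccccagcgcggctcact
The window held no CCAAT box, no GC box and no GTAAACA.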

How the data were processed

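The authors dissected the entire cardiogenic region at E10.5 and made 10x Genomics libraries, 2 hearts of each genotype coming from 1 litter per the study's methods. The deposited files hold raw UMI counts per gene and barcode, made by the authors with Cell Ranger (6.1.2 in the file header) on mm10. Depth was 169361996 to 259775540 UMIs a library. Whether counting used strand is not given in the sources used here, so reads of *Col18a1* and *Slc19a1*, *Col9a3* and *Tcfl5*, and the overlap of *Col4a1* and *Col4a2*, all on opposite strands, may be shared.

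Barcodes were kept from 500 genes and 1000 UMIs upward if mitochondrial genes took no more than 10% of their UMIs, the barcodes with the highest Scrublet scores in scanpy 1.11.5 (0.8% per 1000 barcodes, 285 to 982 a library) were removed as doublets, and cells of all libraries were clustered in Seurat 5.3.0 (2000 variable genes without 90 collagen, pathway and *Tek* genes, 30 components, resolution 0.8). Clusters were named from marker lists and left unnamed where markers were mixed. They were also left unnamed where the median UMI count was under 0.333 of that of their library. The same was done where MC markers came with *Postn* under 0.25 of its highest level in a cluster. This left clusters 11 and 14 unnamed, with 4 of 7 MC markers each. The conditions on UMIs and on *Postn* were set after the clusters were seen. For each cell type the UMIs of a library were added up and tested with edgeR 4.0.16 (TMM, filterByExpr, genotype only). DESeq2 1.42.0, other normalization, no filter, a term for libraries 5 and 6, each library left out, other resolutions, no doublet removal, a stricter cell filter and collagens kept among the variable genes were alternatives. The labels number the libraries 5 to 8 and pair none. Ratios of partner chains needed 50 UMIs of each chain in each library. Promoters came from RefSeq (GRCm38.p6), with 35 collagens matched. The scripts were tested on simulated data.

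Every collagen with at least 20 UMIs is named, with library values for those the study names (*Col4a1*, *Col4a2*, *Col13a1*, *Col3a1*, *Col26a1*), the 10 with most UMIs and up to 5 a cell type with the smallest p. The members and lists were chosen with earlier results of these data known, and the study chose its named collagens on these samples.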

Additional observations from a re-analysis of the deposited data

Results flagged for a closer look

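The log2 fold change of *Itga1* between *Tie2-cko* and control differed between chamber EdCs (0.61, SE 0.13) and cushion EdCs (0.04, SE 0.16) by the test of the difference itself, which was 0.57 (SE 0.12, adjusted p = 0.0427, edgeR). That of *Sparc* was 0.21 (SE 0.13) in chamber EdCs and -0.08 (SE 0.14) in cushion EdCs, with a difference of 0.28 (SE 0.06, adjusted p = 0.0427, edgeR). In the same test 60 of 11920 genes passed (0.503%), and neither gene had an adjusted p under 0.05 in chamber or cushion EdCs alone.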

How the results depend on the processing

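The number of collagens past an adjusted p of 0.05 (edgeR) was 0 in chamber EdCs, cushion EdCs, both EdCs together, CMs, MCs and epicardial cells and in the test between chamber and cushion EdCs. With no filter on low counts it was 3 in chamber EdCs, 2 in both EdCs together and 5 between chamber and cushion EdCs. With the term for libraries 5 and 6 it was 6 in chamber EdCs, 1 in cushion EdCs and 4 in both EdCs together. With 1 library left out it ranged from 1 to 2 in chamber EdCs, from 0 to 1 in both EdCs together (*Col1a1*, without library 8, with 0.256% of all genes) and from 0 to 3 between chamber and cushion EdCs. A group of which 1 library is left is assumed to vary like the other. The summed level was 16.1 in chamber EdCs under the stricter cell filter, which also lost their order over cushion EdCs in library 5, and 3.89 in CMs with no doublet removal. The cause of these changes was not tested.

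For the 44 log2 fold changes of single collagens by cell type, 523 values were computed under alternatives: 474 kept their direction and side of the threshold, 33 passed the threshold and 16 changed direction. *Col4a1* in cushion EdCs (-0.01) was at 0.11 with no doublet removal, 0.11 at resolution 0.4, 0.0020 at resolution 1.2 and 0.089 under the stricter cell filter, and from -0.24 to 0.19 with 1 library left out. *Col4a2* in cushion EdCs was at -0.0079 with the term for libraries 5 and 6, and from -0.33 (without library 6) to 0.30 (without library 8). In cushion EdCs *Col3a1* was at -0.066 at resolution 0.4 and *Col26a1* ran from -0.11 (without library 7) to 0.70 (without library 5). In CMs *Col1a2* ran from -0.11 (without library 6) to 0.74 (without library 5) and was at -0.03 without library 7. In epicardial cells *Col8a1* ran from -0.056 (without library 6) to 1.10 (without library 8) and *Col2a1* from -0.73 (without library 7) to 0.026 (without library 5). The difference between chamber and cushion EdCs for *Col13a1* ran from -0.31 (without library 6) to 0.0052 (without library 8).

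The study's methods speak of matching control and mutant libraries by somites within 1 litter and of sequencing them in 1 lane. The control and *Tie2-cko* libraries share no replicate number, and no source used here says which of them belong together, so the main fit used no pairing. The term for libraries 5 and 6, which puts 1 library of each genotype on each side, is the 1 blocked fit between genotypes that was run. Depth limits the sparse collagens: those with under 1000 UMIs in all are ordered by cell type from few molecules, and 22 of the 44 genes did not pass the filter on low counts in chamber EdCs.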
